A study of Mus musculus with 13 samples.

Results

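Grb10, Ddc and Cobl are 3 neighbouring genes of mouse chromosome 11, picked by their symbols from the 23217 genes of the deposited table. Grb10 encodes an adaptor protein that binds the activated insulin and insulin-like growth factor receptors and holds back growth. It is known as an imprinted gene: most tissues of the embryo express it from the maternal copy, neurons from the paternal copy. Ddc encodes aromatic L-amino acid decarboxylase, which makes dopamine and serotonin, and is known for expression from the paternal copy in the embryonic heart. Cobl encodes cordon-bleu, which nucleates actin filaments. An imprint is a mark of DNA methylation at CpG dinucleotides, set in the germ line of one parent, and at Grb10 the mark comes from the egg.

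Polyadenylated RNA was measured in 13 whole embryos of embryonic day 9.5 on a C57BL/6J background, 3 with the genotype label xHet and 10 with the label xHomo. The series is on how imprints are removed and on Tet1, which converts methylated cytosine to its oxidized forms. General knowledge of the work gives these names the meaning of a cross, with fathers heterozygous (xHet) or homozygous (xHomo) for a Tet1 mutation, so that each embryo stems from a separate sperm. The labels do not state this and name neither the mutant allele, the mothers, the litters nor the sex of the embryos. Where nothing names separate litters, p-values measure only the spread between these samples. Values are FPKM, which count fragments by transcript length and by library, so levels can be compared between genes per length, while the depth behind them is unknown and copies of maternal and paternal origin are summed. In whole embryos fewer cells expressing a gene and less RNA per cell cannot be told apart.

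On the mm9 build, counted from 1, the table places Ddc at 11714104 to 11798147, Grb10 at 11830502 to 11937423 and Cobl at 12136679 to 12364963 of chromosome 11. RefSeq gives all 3 genes on the minus strand and lists a pair of start sites for each. The 250 bases before the starts of Grb10 and Ddc are shown for the number of CpG they offer, in which they differ. Where the imprint lies was not examined, so none of these windows is to be read as the imprinted stretch. They are written 5′ to 3′ with each CpG in capitals, from RefSeq on GRCm38.p6, a different build from that of the table, so the coordinates are not to be set beside the loci above.
Grb10 upstream start, minus strand, chr11:12037421-12037670: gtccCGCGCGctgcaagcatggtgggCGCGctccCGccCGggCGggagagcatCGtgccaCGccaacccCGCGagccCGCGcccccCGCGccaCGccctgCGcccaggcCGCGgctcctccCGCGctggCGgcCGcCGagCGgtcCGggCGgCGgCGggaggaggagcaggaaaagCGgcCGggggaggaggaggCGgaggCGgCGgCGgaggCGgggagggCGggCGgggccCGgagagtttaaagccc
Grb10 downstream start, minus strand, chr11:12027972-12028221: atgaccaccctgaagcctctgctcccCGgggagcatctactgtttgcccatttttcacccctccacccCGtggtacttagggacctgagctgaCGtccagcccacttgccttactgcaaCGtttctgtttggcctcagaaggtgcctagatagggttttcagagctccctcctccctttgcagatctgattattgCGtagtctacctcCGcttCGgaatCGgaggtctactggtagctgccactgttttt
Ddc upstream start, minus strand, chr11:11898145-11898394: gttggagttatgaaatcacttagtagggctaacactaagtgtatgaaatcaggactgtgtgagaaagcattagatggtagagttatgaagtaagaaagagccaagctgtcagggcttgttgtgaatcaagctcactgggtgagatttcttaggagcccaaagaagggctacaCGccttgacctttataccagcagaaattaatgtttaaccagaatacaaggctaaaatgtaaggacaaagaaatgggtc
Ddc downstream start, minus strand, chr11:11890409-11890658: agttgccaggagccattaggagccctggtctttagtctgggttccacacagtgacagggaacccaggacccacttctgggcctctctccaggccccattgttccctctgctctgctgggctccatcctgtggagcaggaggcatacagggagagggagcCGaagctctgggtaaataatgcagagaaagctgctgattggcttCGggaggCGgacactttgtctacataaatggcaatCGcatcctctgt

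The window of the upstream Grb10 start holds 40 CpG, a number that 1.31% of 32851 RefSeq windows of the same length reach. The downstream Grb10 start, 9449 bases away, has 8 CpG, reached by 43.0% of windows, and the median window has 6. Ddc has 1 CpG before its upstream start and 4 before its downstream start, which lie 7736 bases apart. The upstream Cobl start has 36 CpG, reached by 2.58% of windows, and the downstream one has 0. The deposited value of each gene sums its starts (the table gives Grb10 and Ddc 2 start sites each and Cobl 1), so the use of single starts and their methylation were not measured here.

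The first comparison asked how much Grb10 RNA the embryos held. The level of Grb10 in xHet embryos 1 to 3 was 209.49, 211.76 and 220.40 FPKM. For xHomo embryos 1 to 10 the Grb10 values were 217.23, 435.96, 369.81, 527.04, 298.16, 575.83, 244.39, 259.51, 500.25 and 253.73 FPKM. The xHet embryos lay within 1.05-fold of each other, while the highest xHomo embryo had 2.65 times the level of the lowest. Such a range widens with the number of embryos, here 3 against 10. Of the xHomo embryos 9 of 10 were above every xHet embryo, and xHomo embryo 1 lay between xHet embryos 2 and 3. A position that far up, 9 or 10 of 10, was reached by 7.10% of the 12755 genes tested.

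As fold of the xHet mean, Grb10 was 2.04 in xHomo embryo 2, 2.46 in embryo 4, 2.69 in embryo 6 and 2.34 in embryo 9. Embryo 3 stood at 1.73 and embryo 5 at 1.39. The remaining embryos 1, 7, 8 and 10 had 1.02 to 1.21 times the xHet mean. Grb10 thus ran from the xHet level to more than double that level among embryos with the same label. Ranked among all genes of its library, a place that scaling by a constant does not move, Grb10 was at 290 to 341 in the xHet group and at 195, 164, 172 and 186 in xHomo embryos 2, 4, 6 and 9. Embryo 3 had rank 204, and the other xHomo embryos had ranks 278 to 327.

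The mean of Grb10 was 214 ± 5.76 FPKM (SD, n = 3) in xHet and 368 ± 133 FPKM (SD, n = 10) in xHomo embryos. The log2 change was 0.70 (SE 0.28), on the log2(FPKM+1) scale, and did not pass in limma over all genes tested (adjusted p = 0.513, unadjusted p = 0.0258), where 0.0235% of genes passed in either direction. Grb10 alone, by exact permutation over every split of the embryos into 3 and 10, had p = 0.0350 (two-sided), with 0.0035 as the smallest p the design allows. That p depended on single libraries: it was 0.106, 0.106 and 0.0758 without xHet embryo 1, 2 or 3, and 0.05 without xHomo embryo 4 or without xHomo embryo 9. It was 0.0699 after TPM rescaling and 0.0979 after quantile normalization in the same exact permutation test. Since Grb10 was chosen with earlier results of these data known, neither this p nor that of its spread below is independent support.

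**Figure D1:**
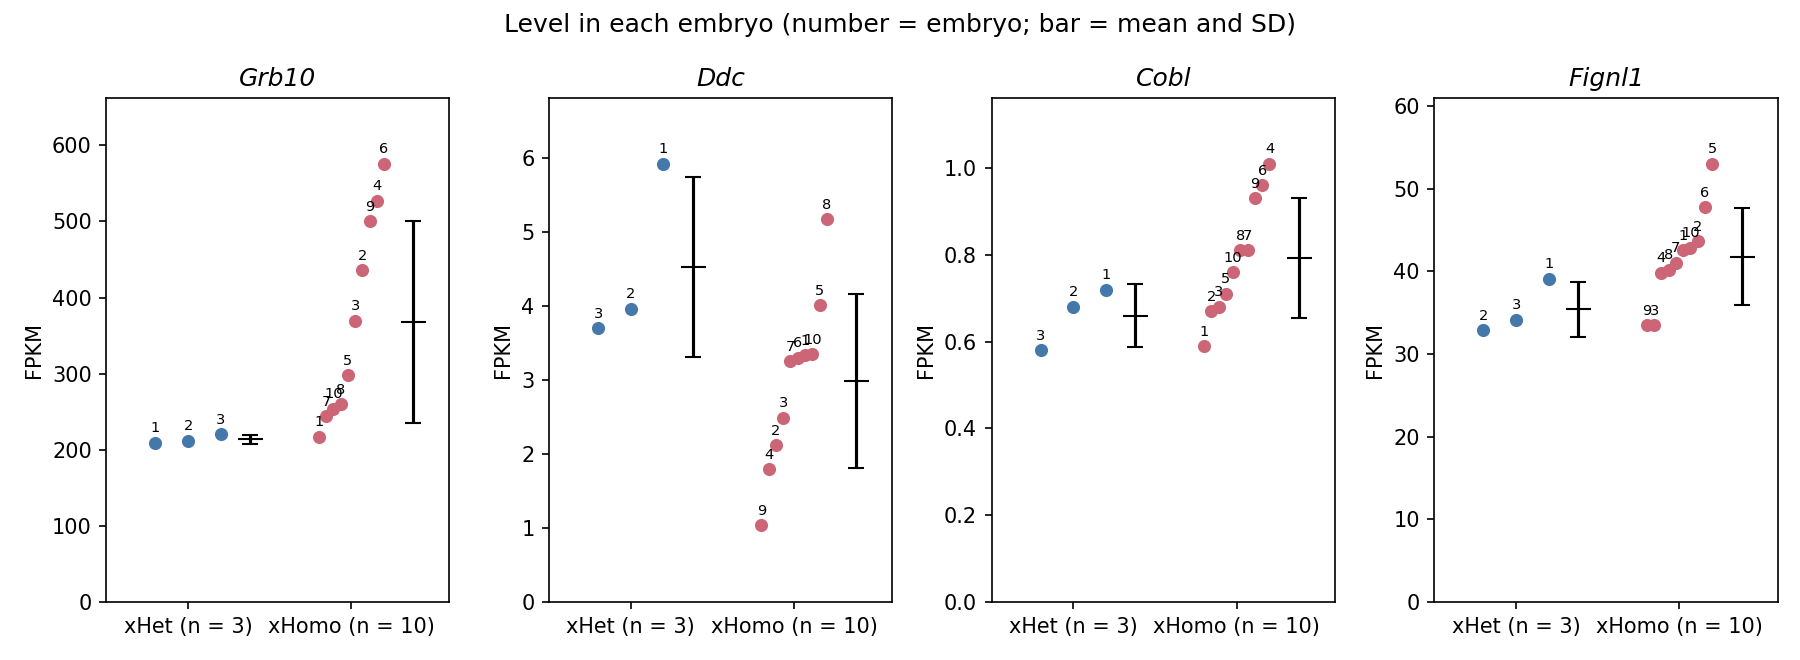
FPKM of Grb10, Ddc, Cobl and their neighbour Fignl1 (vertical axes, from 0) in each of 3 xHet and 10 xHomo embryos; points are embryos with their number, sorted by level within a group, and bars give the group mean and SD. Grb10 spans 217.23 to 575.83 FPKM among xHomo embryos against 209.49 to 220.40 FPKM in xHet embryos, and Ddc is lowest in xHomo embryo 9.

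The spread itself was then compared, as the mean distance of log2(FPKM+1) from the median of the own group. For Grb10 it was 0.02 among xHet and 0.45 among xHomo embryos, a difference of 0.43 with a two-sided p of 0.0350 by exact permutation. Values were not centred on their group before the splits, so a shift in the mean enters this p and those for Ddc and Cobl. It is therefore not separate from the p of the mean above. The spread test gave an unadjusted p under 0.05 with the larger spread in xHomo embryos for 7.58% of genes tested. A larger difference than that of Grb10 was found in 2.06% of genes. The SD of Grb10 among xHomo embryos, 0.52 log2 units, was exceeded by 4.61% of genes tested, whose median was 0.23. The p for the spread was above 0.05 without any 1 of the xHet embryos 1 to 3 (exact permutation p = 0.106, 0.106 and 0.0606) and without any 1 of the xHomo embryos 2, 3, 4, 6 and 9 (0.0545 each). It was also above 0.05 under all 3 rescalings tried, with p from 0.0909 to 0.164 in the exact permutation test and the difference at 0.42 to 0.45.

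Single embryos were then placed against a bound of 1 log2 unit on either side of the xHet mean. Grb10 was that much higher in 4 of 10 xHomo embryos, by 1.02 in embryo 2, 1.30 in embryo 4, 1.42 in embryo 6 and 1.22 in embryo 9. In these libraries 0.408%, 0.729%, 0.557% and 3.03% of all tested genes were as far above, in the same order. Embryo 3 stood 0.79 above in a library where the median of all genes tested was 0.27 below the xHet mean. After median-of-ratios scaling, which sets that median to 0, Grb10 was 1.12 above in embryo 3 and 5 embryos were past the bound (2, 3, 4, 6 and 9). After TPM rescaling only embryos 4 and 6 were past it, at 1.38 and 1.35, with embryos 2, 3 and 9 at 0.95, 0.93 and 0.98. After quantile normalization 3 embryos (4, 6 and 9) were. Grb10 was highest in the same 5 embryos under each of these scalings. The bound of 1 lay inside the range of these 5 except after median-of-ratios scaling, where all 5 were past it.

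**Figure D2:**
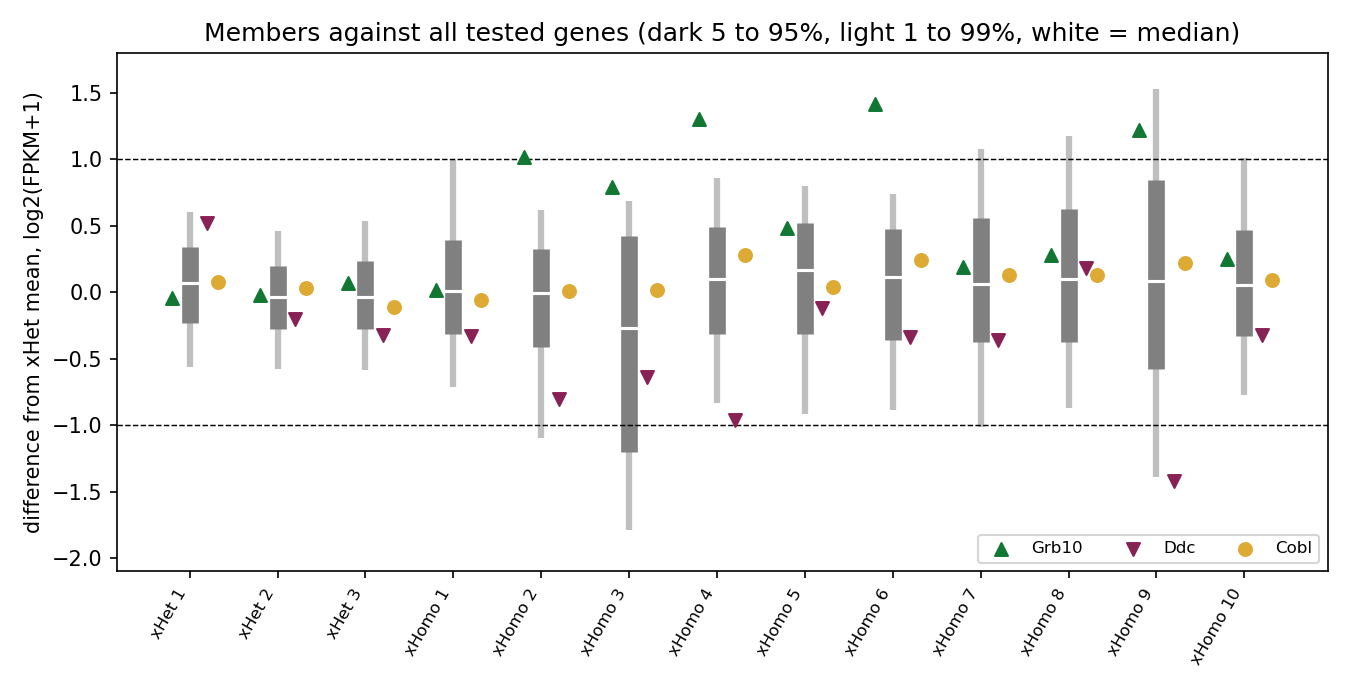
Difference of each embryo from the xHet mean (for a xHet embryo, from the other pair) on the log2(FPKM+1) scale, for Grb10, Ddc and Cobl; grey bars give the range of all 12755 tested genes in that library (dark 5% to 95%, light 1% to 99%, white line the median) and dashed lines a difference of 1. Grb10 lies above the light bar in xHomo embryos 2, 3, 4 and 6, and inside it in xHomo embryo 9, whose bars are long.

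Ddc was far less abundant than Grb10. The xHet embryos 1 to 3 had 5.92, 3.96 and 3.70 FPKM of Ddc. The xHomo embryos 1 to 10 had 3.33, 2.12, 2.49, 1.79, 4.01, 3.30, 3.25, 5.17, 1.04 and 3.35 FPKM. The groups overlapped in xHomo embryos 5 and 8, and the other 8 of 10 lay below every xHet embryo, a position that 4.92% of genes tested reached. The lowest values were those of xHomo embryos 9, 4, 2 and 3, at 0.23, 0.395, 0.468 and 0.55 times the xHet mean.

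The mean of Ddc was 4.53 ± 1.21 FPKM (SD, n = 3) in xHet and 2.99 ± 1.18 FPKM (SD, n = 10) in xHomo embryos. The log2 change of -0.51 (SE 0.26) did not pass in limma (adjusted p = 0.557), nor did Ddc alone in the exact permutation test (p = 0.105). Without xHomo embryo 8, the highest of its group, that test gave p = 0.0455 for a change of -0.59. In xHomo embryo 9 Ddc was 1.42 log2 units below the xHet mean, where 1.53% of genes tested were at least 1 unit lower, and in embryo 4 it was 0.96 below. At a bound of 1.5-fold Ddc was lower in 4 of 10 (embryos 2, 3, 4 and 9), where 2.24%, 27.0%, 1.54% and 4.77% of genes tested were as low, so the place of Ddc in embryo 3 is shared by many genes of that library. Since Ddc is low, the added 1 in log2(FPKM+1) weighs on it: with 0.1 in its place 3 embryos (2, 4 and 9) were at least 1 unit below, and with 5 there were 0. The spread of Ddc was 0.19 among xHet and 0.32 among xHomo embryos (exact permutation p = 0.497).

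Cobl was near the bottom of the measured range. Cobl had 0.72, 0.68 and 0.58 FPKM across xHet embryos 1 to 3. Its values across xHomo embryos 1 to 10 were 0.59, 0.67, 0.68, 1.01, 0.71, 0.96, 0.81, 0.81, 0.93 and 0.76 FPKM. Of the xHomo embryos 6 of 10 were above every xHet embryo and 4 lay within the xHet range, against 34.2% of genes tested with at least 6 above. The highest 3 were embryos 4, 6 and 9, which were also the highest 3 for Grb10. Cobl had a mean FPKM of 0.762, below the minimum of 1 for limma, so 2 of the 3 genes were tested there. Its means were 0.660 ± 0.0721 and 0.793 ± 0.138 FPKM (SD, n = 3 and n = 10), a difference of 0.11 log2 units (exact permutation p = 0.154). Cobl departed by 1 log2 unit in 0 of 10 xHomo embryos. Given the added 1, a gene this low could pass that bound upward only at well over its present level, and downward not at all. The spread of Cobl was 0.04 and 0.09 log2 units (exact permutation p = 0.283).

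Grb10 and Ddc were next set against each other within each library, where scaling of the library by a constant cancels. A shift that depends on the level of a gene does not cancel. In xHomo embryo 3 the share of genes tested at least as far below the xHet mean as Ddc was 23.5%. Quantile normalization moved Ddc in that embryo from -0.64 to -0.22 log2 units and Grb10 from 0.79 to 0.86. The ratio of Grb10 to Ddc FPKM was 35.4, 53.5 and 59.6 in xHet embryos 1 to 3. In xHomo embryos 1 to 10 it was 65.2, 206, 149, 294, 74.4, 174, 75.2, 50.2, 481 and 75.7. Embryos 2, 3, 4, 6 and 9 had ratios of 149 or more, and the other 5 xHomo embryos had at most 75.7. In 9 of 10 xHomo embryos the ratio was above that of every xHet embryo, with embryo 8 as the exception. The share of other gene pairs so placed was not computed, so this count stands without a background.

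On the log2 scale the ratio was 5.59 ± 0.40 (SD, n = 3) in xHet and 6.98 ± 1.07 (SD, n = 10) in xHomo embryos, a difference of 1.39 with a two-sided p of 0.0455 by exact permutation. The genes were chosen with earlier results of these data known, so this p is no independent support. It rose above 0.05 without xHet embryo 1, 2 or 3 (exact permutation p = 0.136, 0.0909 and 0.0909) and without xHomo embryo 2, 3, 4 or 6 (0.0636, 0.0545, 0.0636 and 0.0727). With group medians in place of means the difference was 0.99 (exact permutation p = 0.364). Over all these alternatives it stayed positive, at 0.99 to 1.54.

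**Figure D3:**
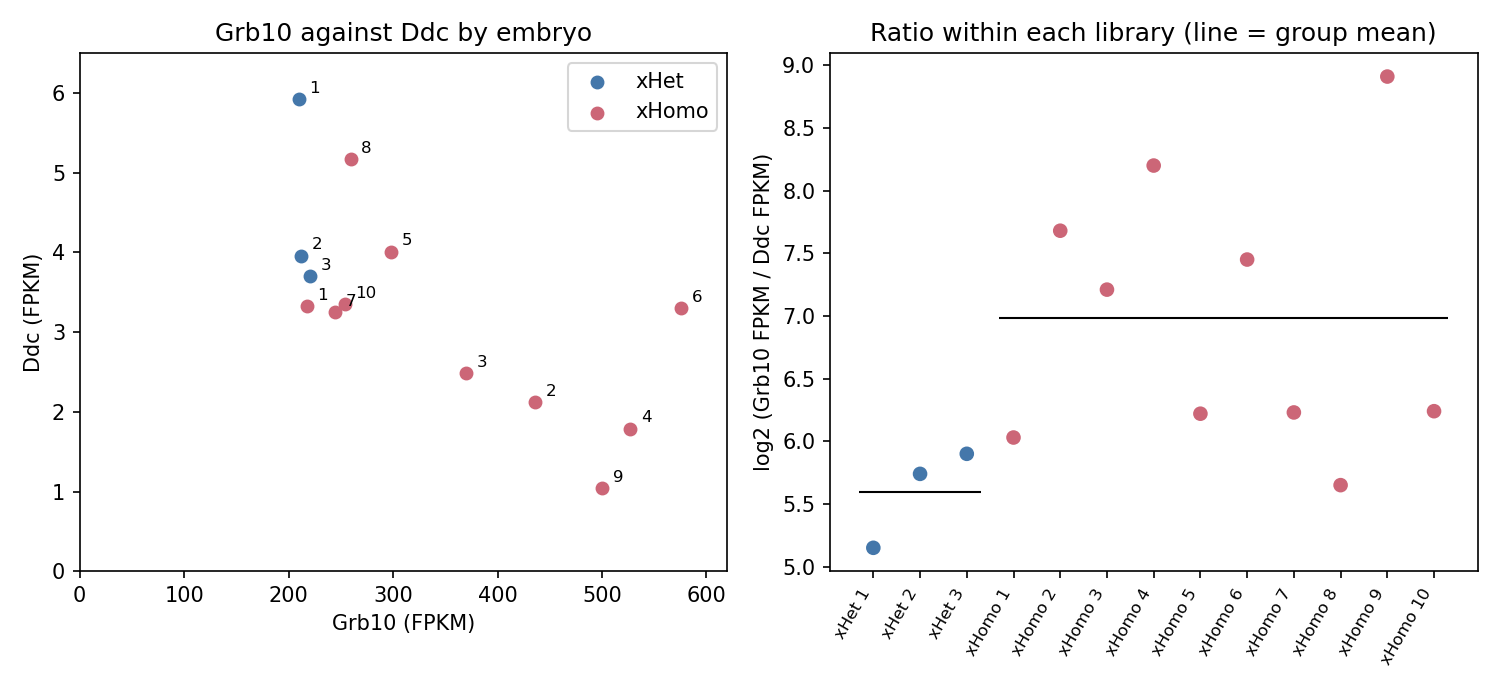
Left, Ddc against Grb10, both in FPKM, with each point 1 embryo and its number; right, log2 of the ratio of Grb10 to Ddc FPKM in each library, with lines at the group means of 5.59 (xHet) and 6.98 (xHomo). Embryos 2, 3, 4 and 9 combine high Grb10 with low Ddc, while xHomo embryo 6 has the highest Grb10 with 3.30 FPKM of Ddc.

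Xist RNA coats the inactive X of female cells, and its level was 0.05 to 0.08 FPKM in the xHet embryos. It was 0.05 to 0.10 FPKM in xHomo embryos 1, 4, 5, 6 and 8 and 30.50 to 158.80 FPKM in the other 5. High Grb10 was found on both sides: embryos 4 and 6 have Xist near 0, and embryos 2, 3 and 9 do not. Against the 5 xHomo embryos with Xist near 0 alone, the difference in the log2 ratio was 1.11 (exact permutation test over 56 splits, p = 0.143). Of these, 4 of the 5 were above every xHet embryo, again without a share over other gene pairs. No such comparison exists for high Xist, since no xHet embryo has it.

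Across the 10 xHomo embryos Grb10 and Ddc had a Pearson r = -0.652 (p = 0.0403 by permutation, 0.217 adjusted) and Spearman rho = -0.552 (p = 0.105 by permutation, 0.400 adjusted), adjusted over 36 pairs of a family of 42. Without xHomo embryos 4 and 6, those farthest from the Grb10 median, r was -0.818. Over all 12471 other tested genes except small RNAs, 0.970% had an r with Grb10 at or below that of Ddc. Grb10 and Cobl gave r = 0.655 (p = 0.0452 by permutation, 0.217 adjusted) and rho = 0.590 (p = 0.0767 by permutation, 0.400 adjusted), and r fell to 0.344 without embryos 4 and 6, so that relation rests on them. Ddc and Cobl gave r = -0.348 (p = 0.326 by permutation, 0.631 adjusted) and rho = -0.267 (p = 0.453 by permutation, 0.743 adjusted), with r = 0.336 without embryos 4 and 9. In the whole family of 3 genes with each other, with 6 neighbours and with 7 marker sums, 0 pairs passed after adjustment while r had a permutation p below 0.05 before it in 8. Values of 6 pairs fell into separate clusters and were given no r.

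The neighbours within 2 Mb of the 3 genes were then described, as the stretch of chromosome 11 around Grb10. The window holds 6 other genes of the table, all on the Ddc side, and Fignl1 alone passed the filter on low values. Fignl1, an ATPase gene of DNA repair (11700291 to 11708965), had a mean of 35.4 ± 3.30 FPKM among xHet embryos (SD, n = 3) and of 41.8 ± 5.89 FPKM among xHomo embryos (SD, n = 10; log2 change 0.23, limma adjusted p = 0.577). It was 39.13, 32.89 and 34.17 FPKM in the xHet embryos and 33.47 to 53.04 FPKM in the xHomo embryos. Fignl1 was above every xHet embryo in 8 of 10 xHomo embryos, as were 15.3% of genes tested, and highest in embryo 5. In the embryos with the highest Grb10 (2, 3, 4, 6 and 9) Fignl1 was 43.66, 33.50, 39.86, 47.80 and 33.47 FPKM, in that order. Its r with Grb10 was -0.157 (permutation p = 0.664, adjusted p = 0.860), its rho -0.0788 (permutation p = 0.840, adjusted p = 0.973), and r without embryos 4 and 6 was -0.446.

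Ikzf1, the Ikaros gene of blood cells, had 0.87 to 1.41 FPKM in xHet and 0.66 to 1.29 FPKM in xHomo embryos, with its lowest value in embryo 4. Zpbp, a sperm protein gene, had 0.11 to 0.33 and 0.07 to 0.43 FPKM, highest in embryo 6, and Vwc2 had 0.12 to 0.29 and 0.04 to 0.31 FPKM. The transcript 1700042O10Rik shares its locus entry with Ddc, and GENCODE M21 annotates it as antisense to Ddc. It was 0.47 to 0.82 FPKM in xHet and from 0 to 0.84 FPKM in xHomo embryos, with 7 of 10 below every xHet embryo (9.56% of genes tested were at least so placed). The kit marks strand, but whether the counting used it is not given in the sources used here, so reads of Ddc and 1700042O10Rik may have been shared. The value of Ddc is uncertain to that extent. Grb10 and Zpbp had r = 0.679 (p = 0.0348 by permutation, 0.217 adjusted) and rho = 0.766 (p = 0.0127 by permutation, 0.400 adjusted), with r = 0.447 without embryos 4 and 6. Grb10 and Ikzf1 had r = -0.649 (p = 0.0466 by permutation, 0.217 adjusted) and rho = -0.612 (p = 0.0681 by permutation, 0.400 adjusted), with r = -0.559 without that pair. Cobl and Zpbp had r = 0.774 (p = 0.00964 by permutation, 0.217 adjusted) and rho = 0.716 (p = 0.0239 by permutation, 0.400 adjusted), with r = 0.698 without embryos 1 and 4. These are of the size found between Grb10 and Ddc or Cobl, in neighbours at under 1.5 FPKM, and did not pass after adjustment either. 4930415F15Rik had 0.19 to 1.03 and 0 to 1.14 FPKM. None of the 6 neighbours differed by 1 log2 unit from the xHet mean in a xHomo embryo, though only Fignl1 has a level at which a doubling would be plain.

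**Figure D4:**
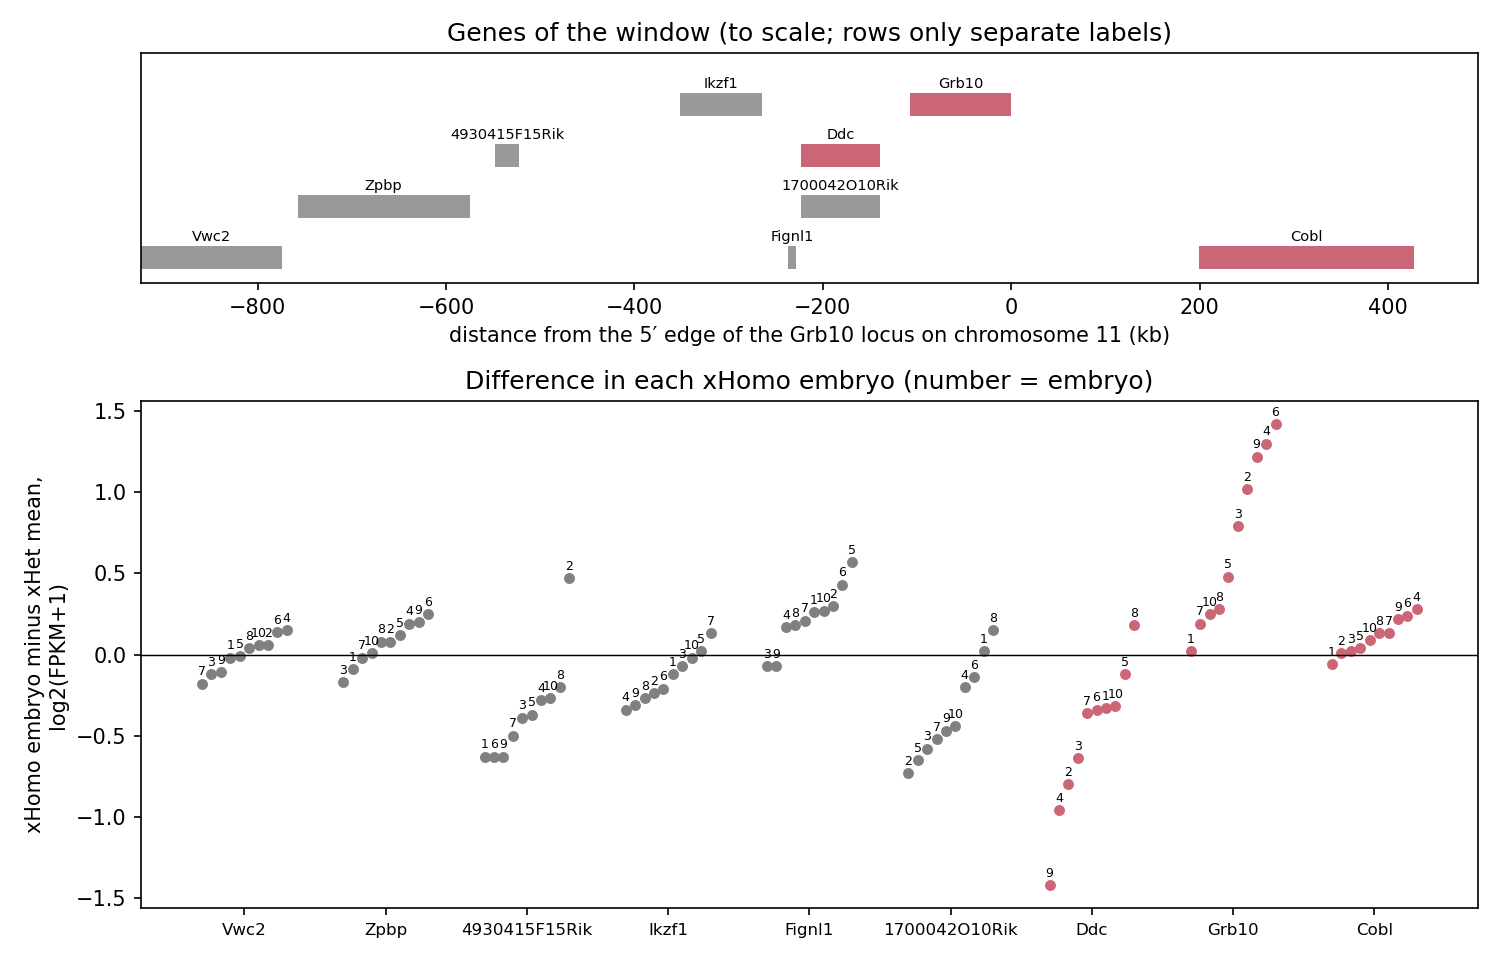
Top, the 9 genes of the window drawn to scale by distance from the 5′ edge of the Grb10 locus (kb), members in red; bottom, the difference of each xHomo embryo from the xHet mean in log2(FPKM+1), points numbered by embryo. Grb10 reaches 1.42 in embryo 6 and Ddc -1.42 in embryo 9, while the neighbours lie within 1 unit of 0. On this scale a gene with an xHet level under 1 FPKM cannot fall by 1 unit, and most neighbours are that low.

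Genes that act with each of the 3 were taken from lists. Around Grb10, 39 genes of insulin and insulin-like growth factor signalling were listed, of which 38 were tested and 0 passed in limma in either direction. Their median log2 change was 0.06 against 0.05 over all genes tested, with 29 above and 9 below 0. The median of all genes tested lay above 0 as well, and their split was not counted, so this split is not read as a lean of the list. An unadjusted limma p under 0.05 was found for 2 of the 38, both higher. Over all genes tested it was found for 7.63% as higher and for 1.72% as lower. Foxo1, a transcription factor held back by insulin signalling, stood at 2.65 ± 0.0656 and 3.88 ± 0.606 FPKM (limma adjusted p = 0.449), with all 10 xHomo embryos above every xHet embryo, as in 1.66% of genes tested. Rheb, the GTPase that activates mTOR, stood at 52.1 ± 3.38 and 60.9 ± 5.92 FPKM (limma adjusted p = 0.524). Map2k1, a kinase of the MAP kinase cascade, had 20.8 ± 1.59 and 28.3 ± 7.25 FPKM, and Grb7, of the same adaptor family as Grb10, had 4.50 ± 0.475 and 5.66 ± 1.13 FPKM (limma adjusted p = 0.557 and 0.577).

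Around Ddc, 20 genes of aromatic amine synthesis, transport and breakdown were listed, of which 9 were tested and 0 passed, with a median change of 0.07. The median over all genes tested was 0.05. The 9 tested genes split into 5 with a change above and 4 below 0. Among enzymes that make or recycle the tetrahydrobiopterin cofactor, Qdpr stood at 27.9 ± 2.55 and 35.8 ± 7.57 FPKM, Spr at 25.7 ± 4.73 and 30.0 ± 3.60 FPKM, and Pcbd1 at 9.10 ± 1.34 and 10.2 ± 1.27 FPKM (limma adjusted p = 0.546, 0.577 and 0.697). Pts, another enzyme of that cofactor, stood at 17.2 ± 0.942 and 16.8 ± 2.44 FPKM (limma adjusted p = 0.932); it had the largest p of the 9 and was added after its values were seen. Maob, which breaks down amines, stood at 2.36 ± 0.564 and 2.88 ± 0.739 FPKM. Around Cobl, 31 genes of actin nucleation were listed, of which 24 were tested and 0 passed, with a median change of 0.11 against 0.05 over all genes tested. The 24 tested genes split into 20 with a change above and 4 below 0, given without the split of all genes tested. Of the 24, 3 were higher at an unadjusted p under 0.05, against 7.63% of all genes tested. The 4 with the smallest p were 3 subunits of the Arp2/3 complex, Arpc1b (12.7 ± 1.28 and 16.1 ± 2.23 FPKM), Arpc3 (70.2 ± 2.63 and 83.7 ± 7.99 FPKM) and Arpc1a (46.9 ± 0.974 and 59.5 ± 9.48 FPKM), and Pacsin3 (5.55 ± 0.177 and 6.59 ± 0.761 FPKM), of a family that binds Cobl. Their limma adjusted p ran from 0.494 to 0.544.

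Markers of the cells the embryos hold were summed per library and set beside the members. All 12 cardiac genes were measured, at 695 to 742 FPKM summed in xHet and 663 to 1168 FPKM in xHomo embryos. Over the 10 xHomo embryos Ddc and the cardiac sum had r = -0.144 (p = 0.695 by permutation, 0.860 adjusted) and rho = 0.0182 (p = 0.972 by permutation, 0.973 adjusted), with r = 0.376 without embryos 4 and 9. The 10 genes of sympathetic and chromaffin precursors, cells that use Ddc, summed to 22.0 to 25.0 and 21.8 to 34.4 FPKM, with all 10 reaching 1 FPKM somewhere. Ddc and that sum had r = 0.359 (p = 0.310 by permutation, 0.631 adjusted) and rho = 0.394 (p = 0.263 by permutation, 0.591 adjusted), and r was 0.893 without embryos 4 and 9, the embryos with the lowest Ddc. The 12 neuron genes summed to 98.6 to 108 and 76.4 to 189 FPKM, highest in embryo 4. The sums of 12 endoderm genes were 58.4 to 75.4 and 21.1 to 110 FPKM, with Apoa4, Apob, Apoc2 and Cubn under 1 FPKM throughout. Trophoblast markers, of a tissue rich in Grb10, summed to 8.04 to 10.7 and 5.55 to 14.0 FPKM. Of the 14, 9 were under 1 FPKM in every library, 4 of them (Tpbpa, Cts7, Ctsq and Psg18) at 0. The remaining markers reached 1 FPKM in at least 1 library. The 10 decidual genes summed to 34.9 to 41.7 and 38.1 to 56.8 FPKM, with Prl8a2 and Pgr under 1 FPKM throughout and Prl3c1 at 0. Nearly all of that sum came from the 7 other genes of the list. Whether those genes mark decidua here was not tested, nor was any part of decidua in the level of Cobl. Cobl and the sum of this list had r = 0.624 (p = 0.0483 by permutation, 0.217 adjusted) and rho = 0.602 (p = 0.0700 by permutation, 0.400 adjusted). Without embryos 1 and 4 r was 0.717. 0 markers of the 7 lists passed in limma.

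The 10 erythroid markers summed to 10084 to 10224 FPKM in xHet embryos, and in xHomo embryos from 5186 FPKM in embryo 4 and 6209 FPKM in embryo 6 to 15313 FPKM in embryo 1. Embryos 4 and 6 had the highest Grb10, but embryo 9 had 13549 FPKM of these markers with 500.25 FPKM of Grb10. Over 10 xHomo embryos Grb10 and this sum gave r = -0.637 (p = 0.0461 by permutation, 0.217 adjusted) and rho = -0.624 (p = 0.0596 by permutation, 0.400 adjusted), with r = -0.137 without embryos 4 and 6, on which it rests. Cobl and the same sum gave r = -0.676 (p = 0.0313 by permutation, 0.217 adjusted), rho = -0.565 (p = 0.0923 by permutation, 0.400 adjusted) and r = -0.341 without embryos 1 and 4. The part of red cell content in the levels of Grb10 and Cobl was not tested.

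The genes with the pattern most like each member were found by Pearson r over the 10 xHomo embryos, as a description across genes that share libraries. For Grb10 the closest were Trim13 (r = 0.856), Plcb4 (0.798) and Ube2cbp (0.780). The most opposite was Pklr, the pyruvate kinase of liver and red cells (r = -0.954), followed by Pdzd7 (-0.891). Pklr was 2.32, 2.47 and 2.56 FPKM in xHomo embryos 4, 9 and 6 and 10.18 FPKM in embryo 1, and 3.80, 3.36 and 4.87 FPKM in xHet embryos 1 to 3. The xHet embryos were thus above xHomo embryos 4, 9 and 6 for Pklr, and below xHomo embryos 1, 7, 8 and 10, which had 6.28 to 10.18 FPKM and Grb10 nearest to the xHet level.

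For Ddc the closest were Fkbpl (r = 0.902), Ubl3 (0.900), Aldh1a3, an enzyme of retinoic acid synthesis (0.889), and Ndufa1, a subunit of respiratory complex I (0.860). Each of these 4 was lowest in xHomo embryo 9, as Ddc was. Nudt6 (-0.818) and Nudt17 (-0.794) were the most opposite to Ddc. For Cobl they were Pygo1 (0.895), Mbp (0.858), Kcnk2 (0.832) and Mfsd9 (0.827), with Trim10, a gene of red cell differentiation (-0.928), and the row deposited under the name 2-Mar (-0.891) at the other end. None of the genes named here as like or opposite to a member lies on chromosome 11. That describes few genes and is given without the share of all genes tested that lie there.

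**Figure D5:**
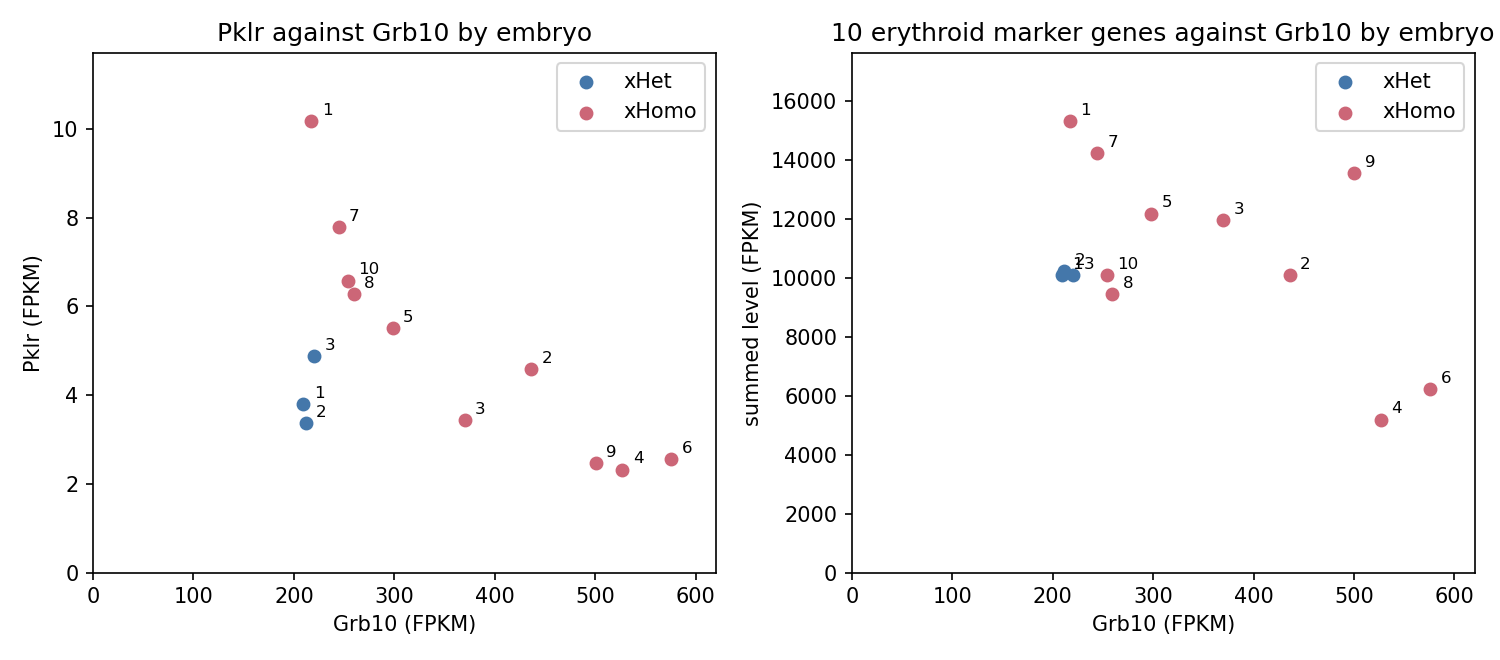
Pklr in FPKM (left) and the summed FPKM of 10 erythroid marker genes (right) against Grb10 in FPKM, with each point 1 embryo and its number. Among xHomo embryos Pklr is highest in embryo 1 and lowest in embryos 4, 9 and 6, and the erythroid sum is lowest in embryos 4 and 6 but 13549 FPKM in embryo 9.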

How the data were processed

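RNA of 13 embryos was purified on RNeasy columns and made into directional poly(A) libraries with a NEBNext kit, per the labels' protocols. The authors deposited 1 table of FPKM values with 2 decimals and mm9 loci. Bcl2fastq 1.8.2, TopHat and Cufflinks are named, per the submitters' processing notes; versions of TopHat and Cufflinks, the annotation, filters and the handling of strand are not stated there. Summed FPKM ran from 500126 to 662936 per library. Where a few abundant RNAs take a larger share, all other FPKM fall.

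Members, lists and rules were chosen with earlier results of these data known. The 12755 genes whose mean reached 1 FPKM were tested on log2(FPKM+1) with limma 3.58.1 in R 4.3.3 (trend, two-sided, no covariate, Benjamini-Hochberg at 0.05). Single values were tested by exact permutation over all splits into 3 and 10, and correlations with 100000 permutations, left out where a gap exceeded 0.5 of the range. Names follow a rule: the members, neighbours within 2 Mb passing the filter, 4 genes per list by p, and 4 closest and 2 most opposite genes (1 gene close to Grb10 is not reported here); neighbours under the filter, named outside it, were all given, since there are 5. All listed symbols were found, Map2 by an older symbol. The steps were checked on simulated data. Python 3.11.15, numpy 2.4.6, pandas 2.3.3, scipy 1.17.1 and matplotlib 3.10.9 were used. Alternatives were the pseudocount, filter, scaling, array weights, Xist, the replicate number and leaving out each embryo. Same-numbered xHet and xHomo embryos did not deviate together (correlations of -0.07, -0.04 and -0.04, against -0.14 to 0.12 over all pairs). They were treated as unpaired, though such a check cannot exclude a shared litter or batch.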

Additional observations from a re-analysis of the deposited data

Results flagged for a closer look

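Among the 10 xHomo embryos, 2 of 17 quantities examined had a value far from the rest by Dixon's test, which chance gives for about 1 in 20. The neighbour 4930415F15Rik was 1.10 on the log2(FPKM+1) scale in xHomo embryo 2, far above the others, from a level of 1.14 FPKM in a gene that was 1.03 FPKM in xHet embryo 3. The log2 sum of the endoderm markers was 4.47 in xHomo embryo 3, or 21.1 FPKM, far below the other xHomo embryos. In that embryo 9.71% of genes tested were at least 1 log2 unit below the xHet mean. Grb10, Ddc, Cobl and their ratio gave no such value.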

How the results depend on the processing

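No mean change, difference in spread or log2 ratio of Grb10, Ddc or Cobl changed sign in any alternative. Among the members, r of Ddc and Cobl did so without xHomo embryos 4 and 9, from -0.348 to 0.336. In limma the log2 change of Grb10 was 0.47 to 0.77 and that of Ddc -0.66 to -0.26, with adjusted p from 0.0853 to 0.966 and from 0.224 to 0.966; Ddc has no value at a filter of 5 FPKM. Array weights, with which 2371 genes passed as higher and 408 as lower against 3 and 0, passed 1 neighbour (Fignl1), 9 signalling, 2 amine and 7 actin genes against 0 each. Elsewhere 0 to 10 genes passed higher and 0 to 8 lower. With the replicate number as a block, in embryos 1 to 3 of each group, the change was 0.61 for Grb10 and -0.59 for Ddc (limma adjusted p = 0.757 for both), and 0 genes passed as higher and 1 as lower. The exact test of Grb10 was lost after TPM rescaling (0.62) and quantile normalization (0.57). On leaving out embryos its difference was 0.62 to 0.77. The test was lost without any 1 xHet embryo and without xHomo embryo 4 or 9 (exact permutation p from 0.05 to 0.106). The spread of Grb10 was lost under median-of-ratios (0.45), TPM (0.45) and quantile scaling (0.42), and was 0.37 to 0.45 on leaving out embryos. Grb10 was past 1 log2 unit in 2 xHomo embryos after TPM rescaling, and in 3 to 4 on leaving out embryos. Ddc was past it in 3 embryos at a pseudocount of 0.1, 0 at 5, 2 under each scaling, 4 at a 1.5-fold bound, and 0 to 2 on leaving out embryos; its mean change then was -0.62 to -0.34. The log2 ratio was 0.99 with medians, 1.11 with Xist near 0, and 1.16 to 1.54 on leaving out embryos. The cause was not tested. After median-of-ratios scaling Grb10 and Ddc had no r, since the Grb10 values fell into separate clusters. Without xHomo embryo 3, 1 pair of the correlation family passed. Read depth is unknown, which limits Cobl and the low neighbours most.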
